A study of Homo sapiens with 22 samples.

Results

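The HOX genes are described here as a set of 39 protein-coding genes of 20033 in the GENCODE annotation, chosen by name alone: HOXA, HOXB, HOXC or HOXD followed by a number. They encode homeodomain transcription factors that set position along the body axis in the embryo and are used again in blood cell formation, and several of them are known for misexpression in leukemia. They lie in 4 clusters on different chromosomes. Genes with the same number in different clusters form a paralog group, and their order along a cluster follows the order in which they are used in the embryo. Chromatin over HOX clusters is held silent by Polycomb group proteins and kept open by Trithorax group proteins such as MLL.

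The cells were K562, an established human leukemia line with erythroid features, transfected with a barcoded piggyBac donor and a helper plasmid, and selected in puromycin for 11 days. The helper carried the transposase alone, with no transcription factor fused to it, as hyPBase in 10 libraries or as hyPBase-centrip in 10, and the sources used here do not describe what the second form is. The transposase inserts the donor at the sequence TTAA, and its insertions are spread unevenly along the genome. Libraries held 1509672 to 3596762 insertions each. Plated sets and RNA preparations joined several transfections, so libraries may share cells. Insertions with the same position, orientation and barcode made up 11.7% ± 1.07 (SD, 18 pairs) between libraries with consecutive replicate numbers of 1 helper, 10.8% ± 0.819 (72 pairs) between other libraries of 1 helper and 10.5% ± 0.739 (100 pairs) between helpers, on the 4 chromosomes that carry HOX clusters. P-values therefore measure the spread between these libraries, which may be technical, and helper and preparation cannot be told apart.

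Levels are given as a relative density, the share of a library's insertions that fell in a region divided by the share of the genome's TTAA sites in it, so that 1 is the genome average, or 2.71 insertions per TTAA over the 20 libraries together. The sequences that carry the results are the TTAA sites with the most insertions in each cluster, with the TTAA in capitals and 13 bases on each side, read on the strand of the HOX genes (hg38):
HOXB cluster, chr17:48541250-48541279, minus strand, in the 3′ UTR of HOXB2: tccttaggtttctTTAAtatttctcccgct
HOXB cluster, chr17:48541030-48541059, minus strand, in the 3′ UTR of HOXB2: ccctttgcatattTTAAaatgggtccctca
HOXB cluster, chr17:48576341-48576370, minus strand, in the 3′ UTR of HOXB4 and an intron of HOXB3: ccacgtttcatctTTAAtcacgccaggtcc
HOXC cluster, chr12:54011675-54011704, plus strand, in the 3′ UTR of HOXC8 and an intron of HOXC6: tccttcctggattTTAAggtctgagacctg
HOXD cluster, chr2:176127262-176127291, plus strand, in HOXD-AS2 and no HOX gene: agaaaggttttgaTTAAaaatattaacaat
HOXA cluster, chr7:27099931-27099960, minus strand, in HOTAIRM1 and no HOX gene: acacggagtttctTTAAtaagctaccagtc

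These sites differed widely in use. The first HOXB2 site took 703 insertions over the 20 libraries, between 30 and 40 in each with a median of 35.5, and only 0.000791% of all TTAA sites in the genome took as many. With 21 barcodes that each held at least 0.5% of the insertions and 2 orientations, a site can record at most about 42 insertions per library, so the count at this site lay near its ceiling in every library. The second HOXB2 site took 574 and the HOXB4 site 490. The HOXC8 site took 326, from 7 to 25 per library with a median of 17. The highest HOXD site took 79, from 0 to 8 per library, and the highest HOXA site took 26, from 0 to 3 per library.

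Similar sequence around a TTAA was used differently in some pairs of paralogs and alike in others. The protein-coding sequence of the group 8 paralogs holds a conserved TTAA at the same place. It is shown because its copies had the widest difference in counts among the pairs described below:
HOXC8, TTAA at chr12:54011161-54011164, plus strand: aaggagtttctctTTAAtccttatttgaca
HOXB8, TTAA at chr17:48613431-48613434, minus strand: aaggagttcctatTTAAtccctatctgact
HOXD8, TTAA at chr2:176131392-176131395, plus strand: aaggaatttctttTTAAcccctatctgacc
HOXB8 and HOXC8 share 25 of 30 bases here, HOXB8 and HOXD8 25, and HOXC8 and HOXD8 24. The HOXC8 copy took 267 insertions, from 6 to 22 per library with a median of 13, and was present in every library. The HOXB8 and HOXD8 copies took 0, although HOXB8 lies inside the cluster with the highest density. In group 10, a coding TTAA of HOXC10 took 27 insertions and its HOXD10 counterpart, with 23 of 30 bases alike, took 0. In group 4, a coding TTAA of HOXB4 took 23 and its HOXD4 counterpart, with 22 of 30 bases alike, took 0. These pairs came from a search among exonic TTAA sites of 1 paralog group. It asked for at least 22 of 30 bases in common on the genes' strand and gave 8 pairs. Several pairs share a site, so the 8 are not separate cases. In 4 of the 8 both sites had few insertions or none: 0 at HOXA4 and 1 at HOXC4 (26 of 30 bases alike), 1 at HOXC4 and 0 at HOXD4 (22), 2 at HOXC8 and 1 at HOXD8 at another TTAA (23), and 0 in the HOXB8 and HOXD8 pair. Whether alignment of reads from such similar sequence affected the counts was not tested.

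The 4 clusters were then compared as wholes, each from the first base of its first HOX gene to the last base of its last. The HOXB cluster (chr17:48528526-48728750, 813 TTAA sites, 20806 insertions) had the highest relative density, 9.52 ± 0.566 (SD, n = 20), with 8.43 in its lowest library, 9.42 at the median and 10.6 in its highest. The HOXC cluster (chr12:53938831-54056030, 418 sites, 4204 insertions) had 3.67 ± 0.40, from 2.59 through a median of 3.74 to 4.25. The HOXD cluster (chr2:176092721-176190907, 453 sites, 1723 insertions) had 1.39 ± 0.183, from 0.956 through 1.38 to 1.67. The HOXA cluster (chr7:27092993-27200091, 442 sites, 842 insertions) had 0.697 ± 0.0986, from 0.537 through 0.690 to 0.856. No library of 1 cluster overlapped the range of another, and HOXA lay below the genome average in all 20 libraries.

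All 6 pairs of clusters differed in the same direction in 20 of 20 libraries (two-sided sign-flip permutation test, adjusted p = 2e-05 for each, the lowest value these resamples allow). HOXB was 13.8-fold higher than HOXA, 6.92-fold higher than HOXD and 2.61-fold higher than HOXC. HOXC was 5.28-fold higher than HOXA and 2.66-fold higher than HOXD, and HOXD was 1.99-fold higher than HOXA. The sizes depended on the counting and on the cluster ends, though not the order. HOXA lay below HOXB by 3.78 on the log2 scale here, by 2.38 with each position and orientation counted once per library, and by 4.63 with the HOX13 genes left out, and HOXB above HOXC by 1.38, 0.57 and 2.09. The order was not that of the chromosomes' own levels, since chromosomes 17, 7, 12 and 2 as wholes had densities of 1.51, 1.19, 1.10 and 1.00. Of 29135 bins of 100 kb along the genome with at least 100 TTAA sites, 0.456% had at least the density of HOXB, 4.76% that of HOXC, 25.1% that of HOXD and 46.5% that of HOXA. The share of TTAA sites used at least once was 80.1% in HOXB, 78.7% in HOXC, 65.3% in HOXD and 56.6% in HOXA, against 47.7% in the genome. The 4 clusters were close to each other in base composition, with 49.3% to 52.6% G and C, and all held fewer TTAA sites than the genome, between 3.57 and 4.61 per kb against 6.22.

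**Figure D1:**
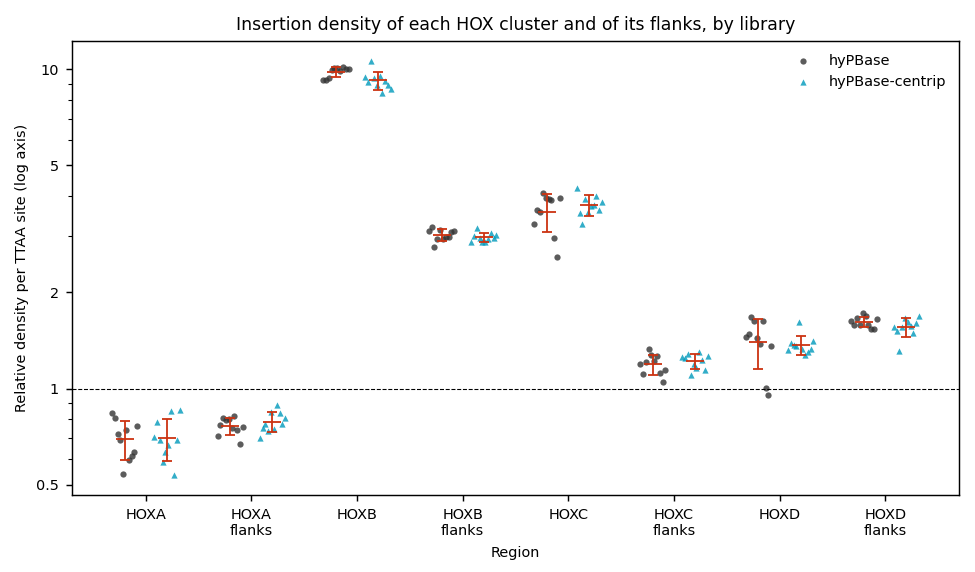
Relative insertion density per TTAA site (log axis, 1 is the genome average, dashed) of each HOX cluster and of the 200 kb on each side of it, with 1 point per library (circles hyPBase, triangles hyPBase-centrip, n = 10 each) and red bars for the mean and SD. HOXB lies between 8.43 and 10.6 in all libraries and HOXA between 0.537 and 0.856, while the HOXA and HOXD points lie close to those of their flanks.

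The next question was whether each cluster stands out from the chromatin around it. The 200 kb on both sides of HOXB had a density of 3.00 ± 0.113 (SD, n = 20) and those of HOXC 1.20 ± 0.0758. HOXB was 3.17-fold and HOXC 3.03-fold above its flanks, each in 20 of 20 libraries (sign-flip permutation test, adjusted p = 4e-05). HOXD, with flanks at 1.59 ± 0.0897, lay below them at 0.866 of their level in 16 of 20 libraries (adjusted p = 0.000107). HOXA, with flanks at 0.775 ± 0.0526, lay at 0.893 of their level in 14 of 20 libraries (adjusted p = 0.00420). Both of these small differences rested on the width of the flanks. With 100 kb on each side the HOXA difference was 0.028 on the log2 scale (adjusted p = 0.640), and with 500 kb the HOXD cluster was above its flanks by 0.13 (adjusted p = 0.00868).

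Set against their own flanks of 200 kb, HOXB and HOXC lay close together, as did HOXA and HOXD. The cluster-to-flank ratio of HOXB did not differ from that of HOXC past the threshold (log2 difference 0.06 ± 0.174, SD, n = 20, adjusted p = 0.162), nor did HOXA from HOXD (0.04 ± 0.318, p = 0.539). HOXB and HOXC each exceeded HOXA and HOXD, by 3.40-fold to 3.65-fold, in 20 of 20 libraries (adjusted p = 3e-05). The closeness within each pair rested on these settings. The log2 ratios of HOXB and HOXC to their flanks were 1.17 and 0.72 with flanks of 500 kb, 2.41 and 1.71 without the HOX13 genes, and 0.77 and 1.21, in the opposite order, with each position and orientation counted once per library. Those of HOXA and HOXD were 0.028 and -0.48 with flanks of 100 kb and -0.47 and 0.13 with flanks of 500 kb.

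The flanks themselves were uneven. The 200 kb below HOXB in coordinate, which reaches into SKAP1, an adaptor protein gene, had 3.92 ± 0.193 and the 200 kb above it 1.60 ± 0.131. SKAP1 as a whole had 4.56. The HOXC flank above the cluster had 1.76 ± 0.154, against 0.854 ± 0.0766 below it, and reaches into CBX5, which encodes the heterochromatin protein HP1-alpha and had 6.24. Next to HOXD, LNPK had 1.89 and MTX2 1.63, and EVX2, a homeobox gene that neighbours HOXD13, had 1.54. Next to HOXA, SKAP2 had 0.679 and EVX1, the HOXA counterpart of EVX2, had 0.392. The HOXA cluster was above the flank on its left (0.581, 17 of 20 libraries, adjusted p = 0.000389) and below the flank on its right (1.01, 20 of 20, adjusted p = 2.67e-05), and HOXD was below its left flank (1.89, 20 of 20, adjusted p = 2.67e-05) with no difference past the threshold from its right (1.31, higher in 13 of 20, p = 0.141).

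Gene clusters of another kind on the same chromosomes served as a second comparison. The keratin genes, structural genes of epithelia, form a cluster of 27 protein-coding genes on chromosome 12 and one of 28 on chromosome 17. These 2 keratin clusters span 784 kb and 970 kb, against 117 kb for HOXC and 200 kb for HOXB. The keratin densities were 1.37 ± 0.0691 on chromosome 12 and 1.86 ± 0.0628 on chromosome 17 (SD, n = 20). HOXC was 2.66-fold above the first and HOXB 5.11-fold above the second, each in 20 of 20 libraries (sign-flip permutation test, adjusted p = 2e-05, the lowest value these resamples allow).

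**Figure D2:**
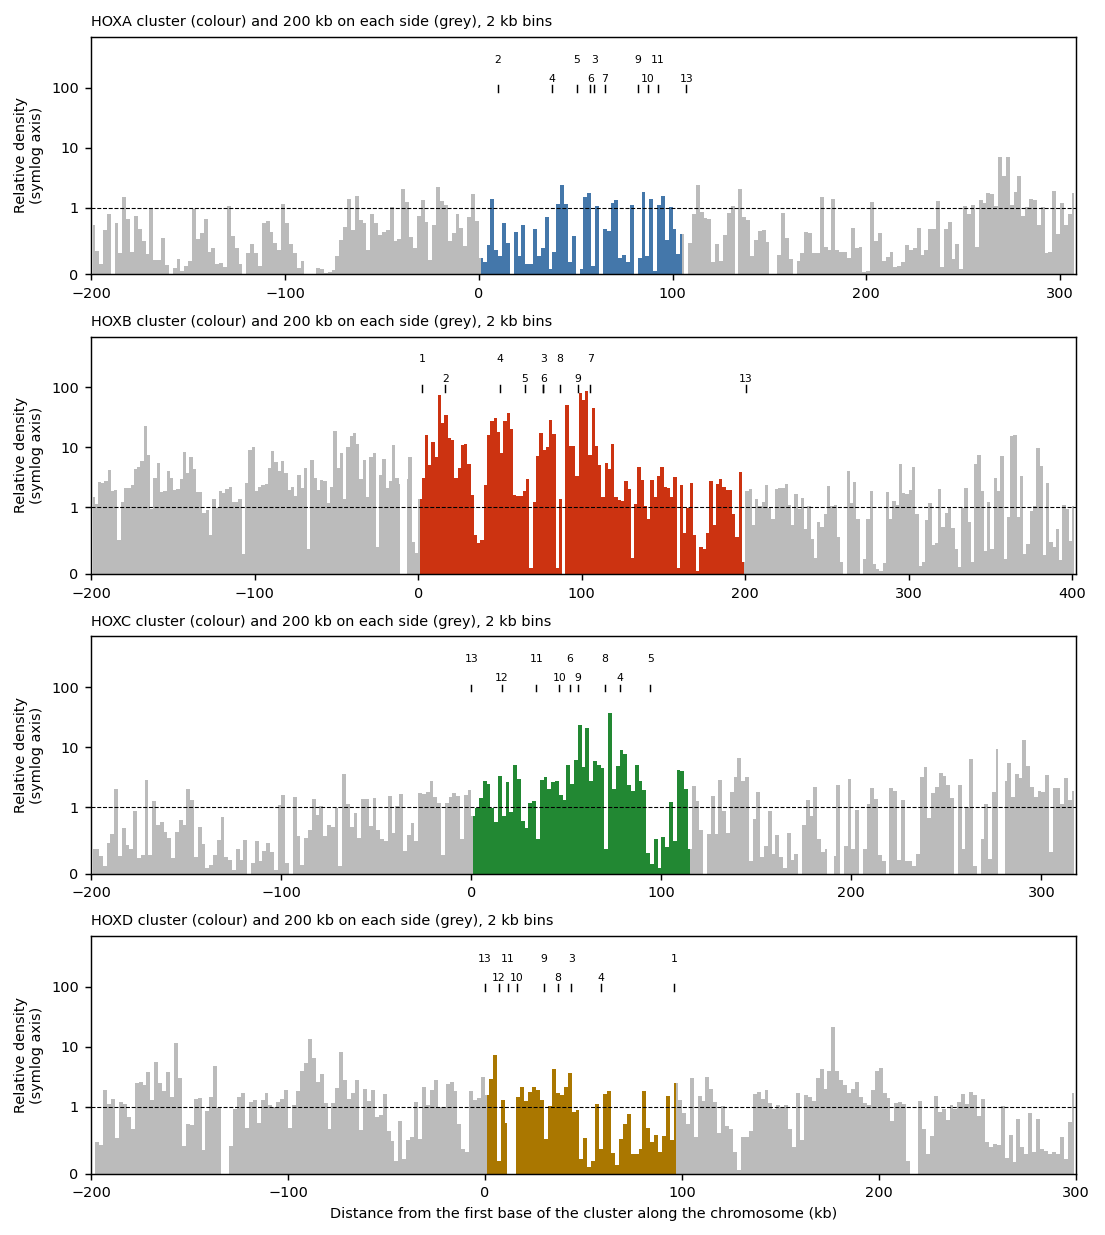
Relative insertion density in 2 kb bins (symlog axis, linear below 1) along each HOX cluster (colour) and the 200 kb on each side (grey), against distance from the first base of the cluster in kb, with 20 libraries pooled. Ticks mark the annotated starts of 38 HOX genes by paralog number, and the dashed line is the genome average. Bins above 10 fill much of the HOXB1 to HOXB9 stretch and stand alone in HOXC, while no bin inside HOXA passes 2.35.

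Within the HOXB cluster the insertions were concentrated at its HOXB1 to HOXB9 end. The stretch from HOXB1 to the end of the HOXB7 annotation, 105 kb, had a density of 17.2 ± 1.07 (SD, n = 20), against 3.01 ± 0.173 in the 91.2 kb from there to HOXB13. Of the 100 bins of 2 kb in the cluster, 28 had more than 10 times the genome average, against 1.44% of all bins with a TTAA, while HOXC had 3 of 58 and HOXA and HOXD had 0. Adjacent bins of this kind formed 12 stretches in HOXB that together covered 56 kb and held 81.1% of the cluster's insertions. The largest, chr17:48540526-48550525, covered HOXB2, the end of HOXB3 and the antisense transcript HOXB-AS1, and held 5612 insertions, 172 to 349 per library. Its first bin, with 2784 insertions and a density of 73.3, was the most used bin of the cluster. The second, chr17:48626526-48632525, lay between HOXB9 and the annotated start of HOXB7, reached into the microRNA gene MIR196A1, and had 3385 insertions at 17 TTAA sites, a density of 73.4. The next covered HOXB4 (1951 insertions) and another the part of HOXB3 and HOXB-AS3 between HOXB4 and HOXB5 (1921 insertions). HOXB5 itself lay outside these stretches, and 20 bins of the cluster lay below the genome average.

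In the HOXC cluster 3 separate bins passed 10 times the genome average and together held 30.5% of its insertions. The most used, chr12:54010831-54012830, lay over the 3′ end of HOXC8 and held 613 insertions at 6 TTAA sites, a density of 37.7, with 13 to 48 per library. The others lay over HOXC9, with HOXC-AS2 (321 insertions, density 23.7) and with HOXC-AS1 (337 insertions, density 20.7). In HOXD the most used bin, chr2:176126721-176128720, lay in HOXD-AS2 between HOXD9 and HOXD8 and held 235 insertions at 20 sites, a density of 4.33. In HOXA it was chr7:27134993-27136992, in an intron of HOXA3 and in HOXA-AS3, with 70 insertions at 11 sites and a density of 2.35.

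Across single genes, 37 of the 39 had at least 5 TTAA sites, and 26 of these lay above the genome average, against 58.5% of all 18550 such protein-coding genes, whose median was 1.20. By cluster, 9 of 9 HOXB genes, 8 of 9 HOXC genes, 6 of 8 HOXD genes and 3 of 11 HOXA genes were above it, with medians of 8.60, 2.81, 1.35 and 0.614. HOXB5 is counted among those above it, although its 1.00 from 19 insertions cannot be told from the average. Density passed 10 in 6 HOX genes, against 1.54% of all genes. HOXB2, HOXB4, HOXC8 and HOXB7 passed 25, against 0.173% of all genes. HOX genes overlap one another in the annotation: the HOXB3 record spans HOXB4, HOXB5 and nearly all of HOXB6, the HOXB7 record spans HOXB8 and HOXB9, the HOXC6 record spans HOXC8 and HOXC9, and an insertion in an overlap was counted for both genes.

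HOXB2, which acts in hindbrain patterning, had the highest density of the 39. No other HOX record overlaps it, though the antisense HOXB-AS1 does. Its 21 TTAA sites were all used and took 3265 insertions. With hyPBase its density was 58.7, 61.0 and 70.4 in the lowest, median and highest library, and with hyPBase-centrip 48.4, 53.9 and 62.0, so the ranges overlapped. HOXB4, which promotes expansion of blood stem cells when overexpressed, had 834 insertions at 6 sites. A single site held 58.8% of them, and the HOXB3 record covers all 6 sites. HOXB4 densities ran from 45.1 through 53.7 to 58.3 with hyPBase and from 39.1 through 48.5 to 59.5 with hyPBase-centrip. HOXB7 had 4842 insertions at 66 sites and a pooled density of 27.0. In the 51 of its sites that no other HOX gene covers the density was 33.1, and at its 5 exonic sites it was 11.9, so most of its insertions lay in the long intron that the annotation gives it. HOXB3 had 10.7, HOXB9 8.60, HOXB6 6.08 and HOXB8 2.95. HOXB5 was the lowest of the cluster with at least 5 sites, at 1.00 from 19 insertions, 0 in 9 of 20 libraries and at most 3 in any. HOXB1, with 3 TTAA sites, had 11 insertions.

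In HOXC, HOXC8 was the highest. With hyPBase its libraries had 27.0, 28.0 and 29.8 at the lowest, median and highest, and with hyPBase-centrip 19.1, 26.5 and 41.9, a wider range around a similar centre. A single site held 53.0% of its 615 insertions. HOXC9, with 719 insertions at 19 sites, had 14.0, and HOXC6 7.51. The HOXC10 to HOXC13 genes, at the other end of the cluster, had 3.41, 2.28, 1.79 and 1.60. HOXC5 took 0 insertions at its 5 TTAA sites in every library, which allows a density of up to 0.221 for 3 insertions over the 20 libraries together, by counting error only. It lies inside the longer HOXC4 record, which had 2.81.

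In HOXD, HOXD13, a limb patterning gene at the end next to EVX2, was the highest at 2.48 from 155 insertions. Its libraries had 0.976, 2.71 and 4.18 with hyPBase and 1.38, 2.43 and 3.95 with hyPBase-centrip. HOXD1, at the opposite end of the cluster, had 2.16. The genes between were lower, with HOXD10 at 1.77, HOXD8 at 1.59 and HOXD3 at 0.775. HOXD9 was the lowest of those with at least 5 sites, at 0.516 from 7 insertions, and 14 of 20 libraries had none. In HOXA the highest gene was HOXA2 at 1.23, from 20 insertions at 6 sites. HOXA9, HOXA10 and MEIS1 are often raised together in leukemias with MLL rearrangements. HOXA9 had 0.612 with 83 insertions, HOXA10 1.04 with 85, and MEIS1 1.57.

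**Figure D3:**
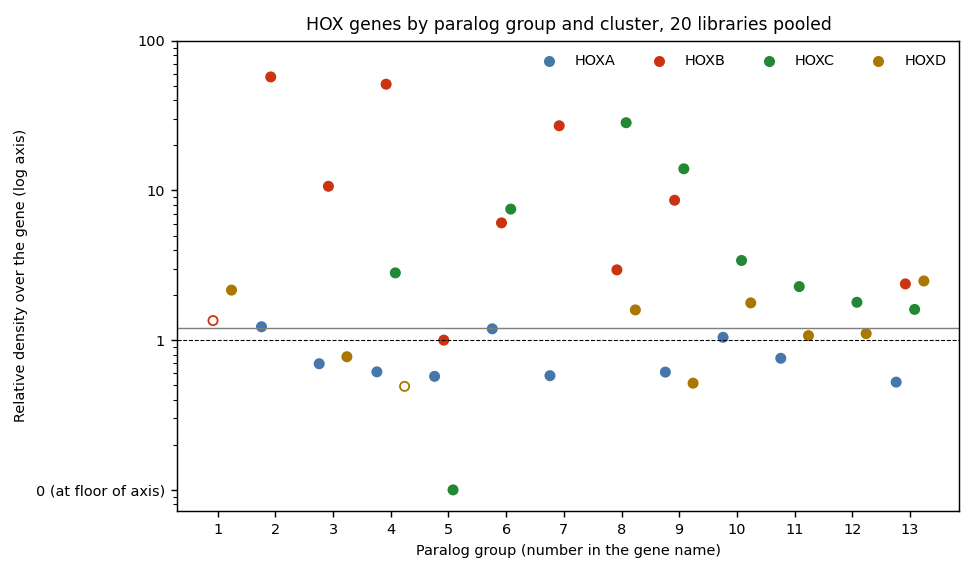
Relative insertion density over 38 of the HOX genes (log axis, 20 libraries pooled), by paralog group on the horizontal axis and coloured by cluster, with open points for the 2 genes under 5 TTAA sites. HOXB and HOXC members stand highest in groups 2 to 12, HOXA members lie at the bottom or near it in most groups, and HOXC5, at 0, is drawn at the floor of the axis. The dashed line is the genome average and the grey line the median of all genes.

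Paralog groups did not share a level. In group 4 the 4 members ran HOXB4 51.2, HOXC4 2.81, HOXA4 0.614 and HOXD4 0.492. In group 9 they ran HOXC9 14.0, HOXB9 8.60, HOXA9 0.612 and HOXD9 0.516, so that the HOXA and HOXD members again lay together below the other two. In group 13 they lay closer, at 2.48 for HOXD13, 2.38 for HOXB13, 1.60 for HOXC13 and 0.525 for HOXA13. In groups 2 and 7, which have HOXA and HOXB members alone, HOXA2 had 1.23 against 57.3 for HOXB2, and HOXA7 had 0.579 against 27.0 for HOXB7. HOXA members were the lowest of their group in 8 of the 11 groups that have one, and HOXB or HOXC members were the highest in 11 of the 13 groups. These values set genes side by side, and with few sites in many of them neighbours in such an order need not differ beyond their spread.

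Annotated gene starts were not where density was highest in all clusters. Within 1 kb of a HOX gene start, HOXB had 16.9 ± 2.00 (SD, n = 20), against 9.01 ± 0.551 in the rest of the cluster, higher in 20 of 20 libraries (sign-flip permutation test, adjusted p = 4e-05). HOXB9 stood out with 85.2 at the 4 TTAA sites near its start, against 8.60 over the gene, and these 4 sites took 924 of the 2375 insertions near HOXB starts. The HOXB1 to HOXB9 stretch, which holds all but 1 of the HOXB starts, had 17.2 as a whole, so a higher density near starts than around them within that stretch is not shown. In HOXC the values were 4.27 ± 1.01 and 3.59 ± 0.380, higher near starts in 15 of 20 libraries (adjusted p = 0.00162). In HOXA they were 0.349 ± 0.202 and 0.732 ± 0.109, higher near starts in 2 of 20 libraries (adjusted p = 4e-05), and in HOXD 1.04 ± 0.415 and 1.42 ± 0.195, higher in 4 of 20 (adjusted p = 0.00162). HOXC8, the highest gene of its cluster, had 0.369 near its start, where it has 2 TTAA sites. By annotation, HOX exons, introns and the sequence between HOX genes had 21.7, 15.5 and 4.99 in HOXB and 5.95, 3.67 and 2.16 in HOXC. In HOXA they had 0.673, 0.647 and 0.914, and in HOXD 1.96, 0.975 and 1.70. Of the 520 TTAA sites between HOXB genes, 432 lay in the stretch from HOXB7 to HOXB13, which had 3.01. A lower density between genes within the HOXB1 to HOXB9 stretch is therefore not shown. Exonic sites of HOXB2 alone took 2952 insertions, against 5541 in all HOXB exons. The medians of all genes were 1.20 over the gene and 2.10 near the start.

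The clusters also carry noncoding genes. MicroRNAs of the MIR10 and MIR196 families are known to act on HOX transcripts. In the annotation MIR196A1, MIR196A2, MIR196B, MIR10A and MIR10B lie inside the HOXB7, HOXC6, HOXA9, HOXB3 and HOXD3 records. Insertions near them were therefore also counted for those genes. Copies of the same miRNA lay in stretches of very different density. The mature strand from RefSeq (hg38) is given with its seed, bases 2 to 8, in capitals:
hsa-miR-196a-5p (MIR196A1 in HOXB and MIR196A2 in HOXC): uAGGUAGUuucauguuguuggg
hsa-miR-196b-5p (MIR196B in HOXA): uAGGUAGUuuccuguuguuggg
hsa-miR-10a-5p (MIR10A in HOXB): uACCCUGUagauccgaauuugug
The window from 1 kb before to 1 kb after MIR196A1 took 522 insertions at 3 TTAA sites, a density of 64.1. MIR196A2, whose mature miRNA is the same, had 13 insertions at 2 sites, 2.40. MIR196B, which shares the seed, had 0 at the single TTAA site of its window. MIR10A, between HOXB4 and HOXB5, had 11.0, and its counterpart MIR10B in HOXD 1.25. Among long noncoding RNAs, HOXC-AS1 had 22.9, HOXB-AS1 20.7 and HOXB-AS3 10.7. HOTAIR, a HOXC antisense RNA described as a regulator of HOXD, had 1.88, and HOTAIRM1 and HOTTIP, at the 2 ends of HOXA, had 1.03 and 1.08.

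The helper comparison was made over 10 libraries of each kind. HOXB had 9.81 ± 0.376 with hyPBase, from 9.23 through a median of 9.97 to 10.2, and 9.22 ± 0.589 with hyPBase-centrip, from 8.43 through 9.16 to 10.6. The difference of -0.582 did not pass the threshold after adjustment over the 4 clusters (two-sided permutation test, p = 0.0180, adjusted p = 0.0720). Without hyPBase-centrip replicate 3, the highest library of that helper for HOXB and its lowest in depth, the difference was -0.733 (adjusted p = 0.00381). It was -0.230 (adjusted p = 0.677) with at least 2 reads behind an insertion. With at least 3 it was 0.037, the opposite direction (adjusted p = 0.915). With each position and orientation counted once per library it was -0.188 (adjusted p = 0.931). Depth also differed, and a site cannot count past its ceiling however deep the library. The deepest library, hyPBase-centrip replicate 9 with 3596762 insertions, had a HOXB density of 8.93. The shallowest, hyPBase replicate 9 with 1509672, had 10.0. Between them in depth, hyPBase replicate 2, with 2429777, had 9.23, but hyPBase replicate 6, with 2401572, had 10.1. The part of depth in the helper difference was not tested. HOXC had 3.58 ± 0.496 and 3.76 ± 0.273, HOXD 1.40 ± 0.247 and 1.37 ± 0.0953, and HOXA 0.694 ± 0.0971 and 0.700 ± 0.105, with adjusted p between 0.711 and 0.895.

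Across genes, edgeR's quasi-likelihood test called 264 of 17481 genes at an adjusted p below 0.05, or 1.51%, of which 84 (0.481%) were higher and 180 (1.03%) lower with hyPBase-centrip. Of the 39 HOX genes 31 had the 20 insertions needed to be tested and 2 were called, both lower with hyPBase-centrip. HOXB2 fell from 119.8 ± 8.62 to 103.0 ± 8.75 CPM, insertion counts scaled to library size (SD, n = 10 in each), which is -0.23 as a log2 fold change (SE 0.0519, edgeR adjusted p = 0.00535). HOXB7 fell from 173.5 ± 11.5 to 156.2 ± 14.8, a log2 fold change of -0.16 (SE 0.0448, edgeR adjusted p = 0.0401). Neither was called with insertions of at least 2 reads or within 1 kb of the gene start. HOXB7 was not called by DESeq2, where its log2 fold change was -0.15 (DESeq2 adjusted p = 0.0644). The part of library depth, and of sites near their ceiling, in these differences was not tested. HOXB9 had the next smallest p, with 8.16 ± 2.14 and 6.16 ± 1.97 CPM (log2 fold change -0.42, edgeR adjusted p = 0.336). Of the 31 genes 10 had a higher and 21 a lower estimate with hyPBase-centrip, with a median log2 fold change of -0.10 against 0.00130 over all genes tested. Overlapping records share insertions, so the 31 estimates are not all separate. Before adjustment 3 of the 31 had p below 0.05 (edgeR). In simulated counts of the same depth and number of genes, changes of 1.5-fold were recovered in 57.5% of changed genes and changes of 2-fold in 77.5%. The other 8, such as HOXB5, HOXC5 and HOXD9, had too few insertions for the test.

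The orientation of the insertions was compared with the strand of the HOX genes, which is the same for every HOX gene of a cluster. The share in the genes' orientation was 50.4% ± 7.04 (SD, n = 20) in HOXA, from 38.2% to 61.4%. It was 47.4% ± 1.91 in HOXB, 48.0% ± 3.60 in HOXC and 47.3% ± 5.31 in HOXD. HOXB was below 50% in 20 of 20 libraries (sign-flip permutation test, adjusted p = 8e-05) and HOXC in 12 of 20 (adjusted p = 0.0452), while HOXD (adjusted p = 0.0502) and HOXA (p = 0.803) did not pass the threshold. Counting each position and orientation once per library, HOXB and HOXC no longer passed it (adjusted p = 0.209 and 0.288). Over stretches of the genome covered by protein-coding genes of 1 strand only, the share was 33.2% ± 0.745, so insertions there were mostly against the gene. Each whole cluster, with the sequence between its genes, exceeded this share in 20 of 20 libraries by 14.1 to 17.2 percentage points (adjusted p = 2e-05, the lowest value these resamples allow). Inside HOX gene bodies alone the shares were 49.7% ± 8.53 in HOXA, 42.2% ± 1.67 in HOXB, 49.9% ± 4.26 in HOXC and 52.8% ± 7.11 in HOXD. Over protein-coding genes with at least 10 insertions the share varied with length, at 50.1% for genes under 5 kb, 32.0% for those of 5 to 50 kb and 34.4% for longer ones. The longest HOX records lay above these last 2 values, with 49.8% in HOXC6, 49.5% in HOXA3, 45.7% in HOXD3, 44.8% in HOXC4, 37.4% in HOXB7 and 37.2% in HOXB3. Of the shorter HOX records over 5 kb, HOXB9 (26.7%) and HOXA6 (28.6%) lay below 32.0% and the rest above it. The part of length in the difference was not tested.

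**Figure D4:**
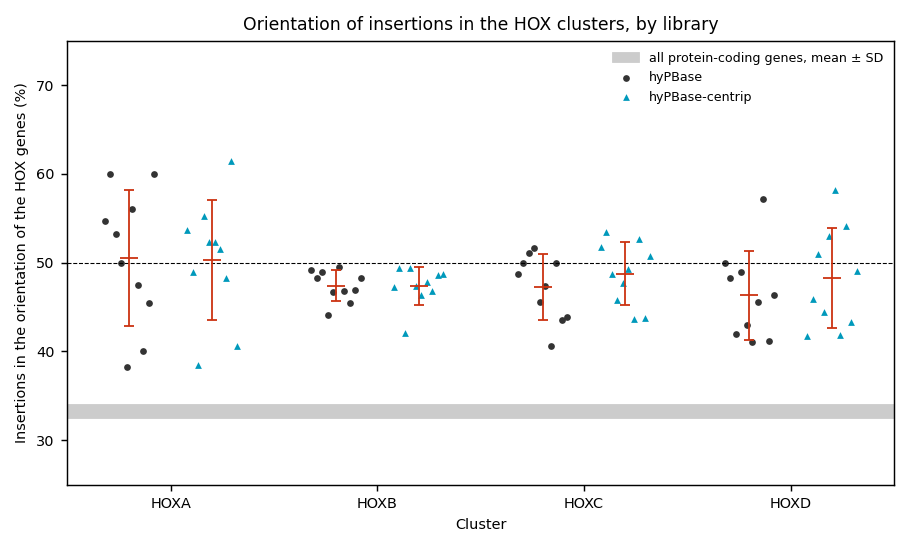
Share of insertions in the orientation of the HOX genes (%) in each cluster, 1 point per library (circles hyPBase, triangles hyPBase-centrip, n = 10 each) with red bars for the mean and SD. The grey band, all protein-coding genes in the key, is the mean ± SD over stretches covered by protein-coding genes of 1 strand only. All points lie above the band at 33.2%, and those of HOXB, which rest on the most insertions, are the least spread.

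Single HOX genes departed far from an even split. HOXB6 had 79.6% of 445 insertions in its own orientation, while HOXB4 and HOXB7 had 36.6% of 834 and 37.4% of 4842. HOXB2 had 58.2% of 3265. Among the 14 HOX genes with 10 to 50 insertions, HOXB1 (11 of 11), HOXD12 (15 of 15), HOXB5 (18 of 19), HOXC12 (32 of 34) and HOXD1 (38 of 41) had at least 90% in the gene's orientation, against 8.92% of all 2052 protein-coding genes with that many. These are counts at 2 to 5 used sites per gene, and a single site held 47.1% to 73.3% of them, so the insertions of 1 gene are not independent of each other.

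The genes that act with or upon HOX genes were read in the same way. Of the Trithorax and MLL group, which keeps HOX genes active, 14 of 17 lay above the genome average with a median of 1.72, and KMT2D (6.50) and DOT1L (4.95) were highest while MLLT3 (0.0748) and KMT2B (0.513) were lowest. Of the Polycomb group, 16 of 19 genes with at least 5 sites lay above it with a median of 2.05, from PHF19 (7.51) and BMI1 (6.48) to SUZ12 (0.793) and PCGF6 (0.726). Of the TALE homeodomain proteins that bind DNA with HOX proteins, 6 of 11 lay above it with a median of 1.03, from TGIF1 (9.14) and PBX2 (6.75) to MEIS3 (0.0962). Other homeobox genes upstream of or next to HOX clusters had 3 of 8 above it and a median of 0.619, with MNX1 (4.07) and EVX2 (1.54) highest and PDX1 (0.164) and CDX4 (0.0548) lowest. Of the 3 leukemia fusion partners HLF had 1.46, NUP98 0.961 and NPM1 0.499. All genes together had 58.5% above the average. The helper test covered 17 Trithorax and MLL, 20 Polycomb, 10 TALE and 5 other homeobox genes and the 3 fusion partners. It called 1 of these, DPY30, a subunit of MLL complexes, against 1.51% of all genes called in either direction. DPY30 was lower with hyPBase-centrip at a log2 fold change of -0.13 (edgeR adjusted p = 0.0488). Its record spans 171997 bases with 1418 TTAA sites, and where in it the difference lay was not tested.

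Marker genes give the scale of these densities in K562. Erythroid genes lay high, with 9 of the 9 that have at least 5 TTAA sites above the genome average and a median of 6.15, and KLF1, an erythroid transcription factor, had 30.7. The other erythroid gene listed, GATA1, has 3 TTAA sites and lay below the average, at 0.614 from 5 insertions. The median is the value of HBG2, whose record spans 252418 bases. The HBE1 record, of 237308 bases and a density of 5.96, overlaps it almost throughout, so most insertions in these records were counted for both. Lymphoid markers had 2 of 5 above it and a median of 0.679, and the liver genes ALB and APOB had 1.73 and 0.318. By this scale HOXB2 and HOXB4 exceeded every erythroid marker listed with at least 5 TTAA sites, and the HOXA median lay near that of the lymphoid markers. Insertion density is not a measure of expression.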

How the data were processed

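Insertions were mapped in 20 K562 libraries with a labelled helper, and 2 further libraries, for which the labels name different helpers in title and description, entered no comparison. For each library the authors deposited 1 line per insertion, with its position on hg38, a raw count of the reads behind it, an orientation and a barcode. The submitters' processing notes name Trimmomatic, BWA and SAMtools, with no versions or settings given in the sources used here. Each line was taken as 1 insertion.

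The hg38 sequence was searched for TTAA, and gene records came from GENCODE version 44. Densities, shares and permutation tests (100000 resamples, Benjamini-Hochberg adjustment) were computed with scipy 1.17.1 and numpy 2.4.6 (Python 3.11.15). Insertions per gene body were compared between helpers with edgeR 4.0.16 (quasi-likelihood test, TMM, at least 20 insertions over the 20 libraries) and, as an alternative, DESeq2 1.42.0. The gene test was tested on simulated data. Genes were named by rule: in each cluster the highest and the lowest with at least 5 TTAA sites, those called between helpers, and the 2 highest and 2 lowest of each list. Some genes that the rule names are not reported here. The others named were chosen after their values were seen. The members, lists and tests were chosen with earlier results of these data known. Alternatives used a minimum of 2 or 3 reads, collapsed barcodes, other flanks and cluster limits, each helper alone and 1 library left out.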

Additional observations from a re-analysis of the deposited data

Results flagged for a closer look

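In 3 of 24 groups of 10 libraries checked, 1 library stood apart from the other 9 by a gap that chance gives in about 1 group of 20, or 1.2 of 24. The relative density of HOXB in hyPBase-centrip replicate 3 was 10.6, and the next highest library of that helper had 9.52. The share of HOXB insertions in the genes' orientation in the same library was 42.0%, and the next lowest was 46.3%. This library had 1638175 insertions, the fewest with that helper. The relative density of HOXD in hyPBase-centrip replicate 5 was 1.61, and the next highest was 1.41.

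The 2 libraries with conflicting labels entered no comparison. In the first the relative densities of HOXA, HOXB, HOXC and HOXD were 0.767, 8.70, 3.67 and 1.39, and in the second they were 0.727, 8.43, 3.77 and 1.35. Each lies inside the range of the 20 labelled libraries, except HOXB in the second, which is at the lower end of that range, 8.43 in both after rounding.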

How the results depend on the processing

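The order HOXB, HOXC, HOXD, HOXA and all 6 differences between clusters kept their direction and stayed past the threshold under every alternative run. So did the differences from the keratin clusters and of each cluster's orientation from that of stretches with protein-coding genes of 1 strand only. With collapsed barcodes the densities were 4.77 for HOXB, 3.21 for HOXC, 1.62 for HOXD and 0.924 for HOXA, since a site can then count only once per orientation and library. Requiring 2 reads behind an insertion gave 10.4 for HOXB and requiring 3 gave 11.3, and HOXB was 17.2 without HOXB13 and 7.12 without exons. HOXC was 4.08 without HOXC13 and 2.80 without exons, and HOXD was 1.17 with at least 3 reads. The difference of HOXA from its flanks was -0.058 on the log2 scale with collapsed barcodes and -0.15 with hyPBase alone, neither past the threshold, and 0.028 with flanks of 100 kb, and that of HOXD was 0.13 with flanks of 500 kb. The DNA copy number of the clusters in K562 was not measured.

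For the orientation, the distance from 50% was, in percentage points, -1.12, -0.15, -1.72 and -2.10 in HOXA with at least 2 reads, collapsed barcodes, no HOXA13 and no exons, in HOXC -2.37, -1.34, -1.26, -2.76, -1.24 and -0.91 with at least 2 reads, at least 3, collapsed barcodes, either helper alone and no HOXC13, in HOXB -0.997 with collapsed barcodes, and none of these passed the threshold. In HOXD it passed the threshold at -5.86 without exons and at -2.89 without hyPBase-centrip replicate 3. Of the helper differences, that of HOXA was -0.071, -0.10, -0.0051 and -0.0039 with at least 2 reads, at least 3, collapsed barcodes and no HOXA13, that of HOXD 0.024 and 0.026 with collapsed barcodes and no exons, and that of HOXB 0.037 with at least 3 reads, while HOXB passed the threshold at -1.17 without HOXB13 and at -0.733 without hyPBase-centrip replicate 3. The causes were not tested.

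The gene test called 45 genes within 1 kb of gene starts. It called 0 HOX genes there and with at least 2 reads, and 1 with DESeq2 and with a filter of 1 insertion (HOXB2 in both). These settings gave an adjusted p to 18, 26, 4 and 38 HOX genes, in that order, against 31 in the main test. Under the other alternatives 2 HOX genes were called. HOXB7 had 0.32 on the log2 scale near its start. Same-numbered libraries of the helpers did not deviate together (correlations -0.046 to 0.038, 0 of 10 pairs above 0.1, 1 of 10 best with its own number), so the numbers were not taken as pairs. With the replicate block 261 genes were called, with HOXB2 (-0.22) and HOXB7 (-0.16) among them, and the helper difference of HOXB stayed at -0.582 (adjusted p = 0.250).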
